A study of Mus musculus with 111 samples.

Results

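The cytosolic arginine tRNAs are the nuclear-encoded tRNAs that carry arginine to cytosolic ribosomes. They are represented here by 10 entries of a small-RNA count table, tRNA-Arg-ACG-1 and -ACG-3, tRNA-Arg-CCG-3, tRNA-Arg-CCT-1, -CCT-2 and -CCT-4, and tRNA-Arg-TCT-1, -TCT-2, -TCT-3 and -TCT-5, chosen by name from 1268 entries in all. The letters give the anticodon and the last number the isodecoder, a tRNA that shares its anticodon with others but differs elsewhere in its body. After entries that repeat the reads of another were set aside, 1042 entries (called features) remained, 154 of them cytosolic tRNAs and 18 of those arginine tRNAs. The 10 members held 230062 reads and the other 8 arginine rows, which include the 4 with anticodon TCG, held 4721.

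Small RNA of mice had been made into libraries by OTTR-seq, a method whose reverse transcriptase adds the adapters during copying. The 111 libraries came from heart (19), liver (17), sperm (19), cauda epididymis (18), caput epididymis (19) and testis (19); the caput is the head of the epididymis and the cauda its tail, where sperm are stored. Diets had been eaten for 6 months. The low-protein diet held 10% protein with sucrose as the replacement mass. The high-fat diet drew 60% of its calories from fat, and the high-fat-control diet 7.2%. The control diet of the low-protein arm held 18% protein. Each of the 24 groups of tissue and diet had 4 or 5 libraries. The labels give neither strain nor age of the mice, and they do not say that each library of a group is a different animal, so p-values cover only the spread among libraries, which may be technical. These are bulk samples, in which fewer cells of a type and less RNA per cell cannot be told apart, and the tissue labels were not checked against marker genes.

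Arginine is specified by the CGN codon box and by AGA and AGG. The ACG anticodon, whose first base is deaminated to inosine by the ADAT2 and ADAT3 enzyme pair, reads several CGN codons; TCG and CCG read CGA and CGG; CCT reads AGG; and TCT, whose wobble uridine is modified with the help of ALKBH8, reads AGA. Arg-CCT and Arg-TCT can also carry 3-methylcytosine in the anticodon loop, placed by METTL2 with DALRD3. Several such base modifications can stop a reverse transcriptase, so a read count reflects both the amount of a tRNA and how readily it is copied.

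Arginine tRNA genes differ in length, and a longer TCT gene, whose anticodon stem closes when an intron is left out, is shown beside a TCG gene without one. RefSeq lists 24 mouse cytosolic arginine tRNA genes on GRCm38, 6 with anticodon ACG, 3 with CCG, 5 with CCT, 5 with TCG and 5 with TCT. The genes of ACG, CCG, CCT and TCG are all 73 bases long, and those of TCT 74 to 87 bases. The other 3 TCT genes of 86 or 87 bases and the TCT gene of 74 bases were not examined for an intron. Sequences were read from GENCODE vM21 transcripts of GRCm38 that hold the RefSeq gene whole, an exon of the lncRNA gene Gm17494 for n-TRtct2 (chr3:122292948-122293032, minus strand) and of Gm10616 for n-TRtcg5 (chr7:79466419-79466491, plus strand). Capitals mark the anticodon.
n-TRtct2: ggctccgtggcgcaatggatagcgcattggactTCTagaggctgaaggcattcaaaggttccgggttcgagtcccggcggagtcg
n-TRtcg5: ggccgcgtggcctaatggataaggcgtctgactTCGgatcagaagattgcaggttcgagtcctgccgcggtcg
In both genes the anticodon starts at base 34 and the acceptor stem pairs at 7 of 7 positions. In n-TRtct2 the anticodon stem closes with 5 of 5 pairs when the 12 bases of an intron are left out, and in n-TRtcg5 it closes with 5 of 5 and no intron. RefSeq numbers its genes otherwise than the table numbers its isodecoders, so neither gene is assigned to a table row.

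Depth set the precision. Libraries held 827 to 1467880 reads over the features, with a median of 59904, and 3 were under 5000 (high-fat liver replicate 3, low-protein caput replicates 2 and 3). The lowest, median and highest number of arginine reads per library were 21, 2654 and 10369 in heart, 3, 319 and 33809 in liver, 60, 198 and 560 in sperm, 129, 572 and 15223 in cauda, 7, 224 and 1432 in caput, and 54, 2086 and 23409 in testis. Intervals and zero-count limits given here are 95% Wilson intervals and limits of 3 reads, and they cover counting error only. No source used here says how reads were divided among near-identical tRNA copies, so values of single isodecoders are uncertain. The counts of CCT-1 and CCT-2, the closest member pair, differed by 27.6% of the larger total.

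A division of the libraries by their column numbers touches several results. The column headers number libraries; those of control liver, control heart and all testis, cauda and sperm carry the numbers 1 to 66 once each with 1 number missing (65 libraries), whereas of the other 46, 36 carry a number already in that run, 1 the missing number and 9 none. The headers do not say what the numbers stand for, and the division was made after the values were known. The numbers alone do not fix which groups form the run. High-fat-control liver and high-fat sperm, for example, both carry 44 to 47, and either would leave the run without a repeat. Every header also ends in gt65, which the headers do not explain, so a limit on read length cannot be told from them. Low-protein and high-fat-control liver and heart therefore lie outside the run while their control libraries lie in it, and so does caput while cauda lies in it. In these comparisons diet or tissue and membership of the run cannot be told apart. Inside the run each group of tissue and diet also holds its own block of numbers.

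TCT and CCT isodecoders supplied most arginine reads. TCT-1 held 33.3% of all arginine reads, CCT-4 22.8%, TCT-3 13.8%, CCG-3 10.2%, TCT-2 5.51%, CCT-1 4.08%, TCT-5 4.03%, CCT-2 3.25%, ACG-1 0.712% and ACG-3 0.465%. RPM, the reads of an RNA scaled to 1000000 reads over the features, was computed for each library. Since 1 read copies 1 RNA, RPM was not divided by length. TCT-1 averaged 2894 ± 2372 RPM and CCT-4 2786 ± 2498 RPM over the 111 libraries (SD), a difference well under the spread. TCT-3 averaged 1250 ± 1094 RPM and CCG-3 955 ± 1214 RPM, followed by TCT-2 at 439 ± 491, CCT-1 at 397 ± 435, CCT-2 at 317 ± 425, TCT-5 at 253 ± 380, ACG-1 at 82.9 ± 168 and ACG-3 at 42.5 ± 58.4 RPM. Each neighbour in that order lay within 1 SD of the next. CCT-4 had reads in all 111 libraries, TCT-5 in 85 and ACG-3 in 66.

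**Figure D1:**
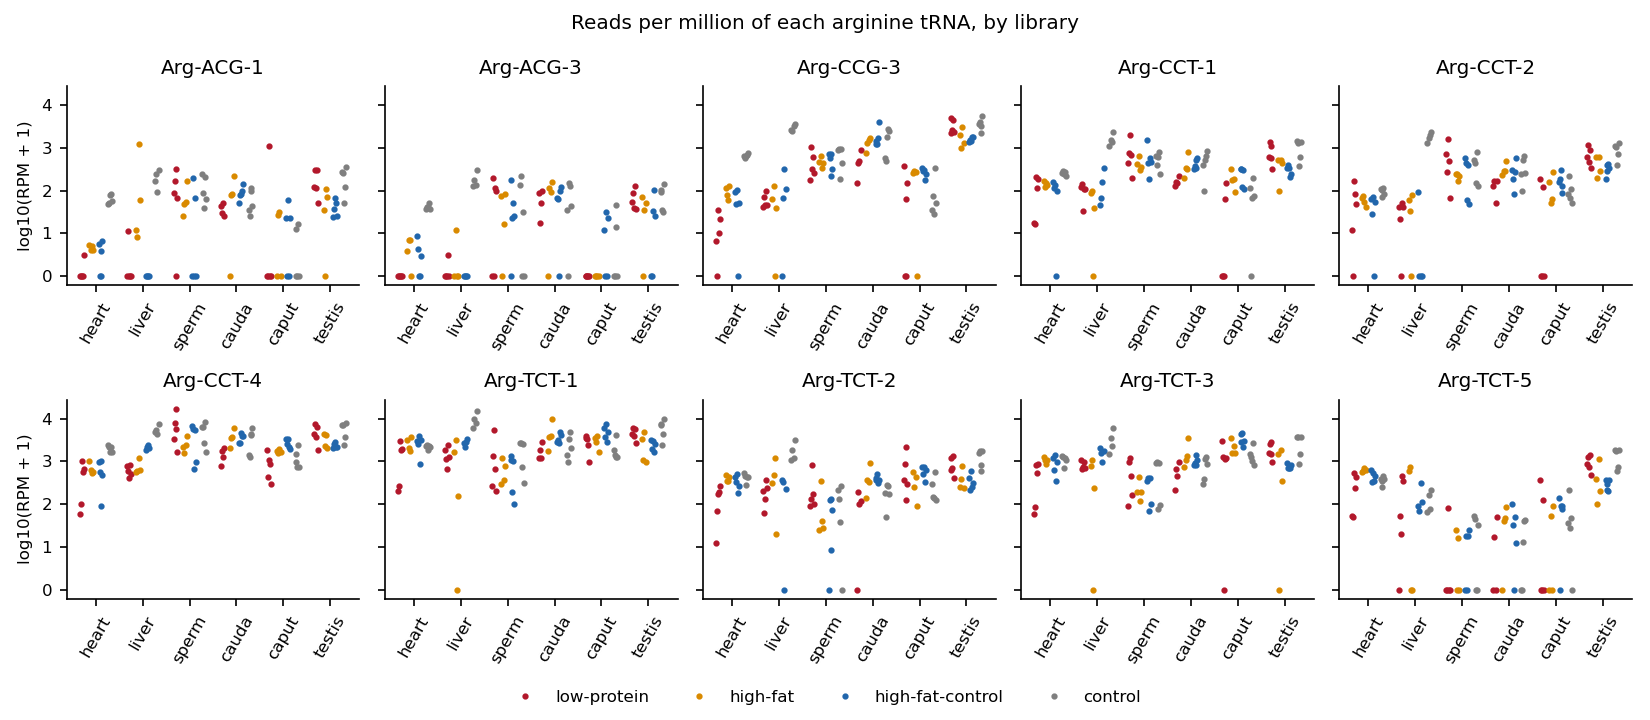
Each panel shows 1 arginine tRNA, the vertical axis log10(RPM + 1) and each dot 1 library, coloured by diet within tissue. The low-protein, high-fat and high-fat-control livers lie mostly below control liver for ACG, CCG-3 and CCT isodecoders, and TCT-5 is at 0 in 10 of 19 sperm libraries.

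Averaged over the libraries of all diets, arginine tRNAs made up the largest share of cytosolic tRNA reads in sperm and the smallest in caput. The share was 4.35 ± 1.05% in sperm (SD, n = 19), 3.22 ± 0.737% in testis (n = 19), 2.46 ± 0.655% in cauda (n = 18), 2.43 ± 1.27% in liver (n = 17), 2.32 ± 1.07% in heart (n = 19) and 1.38 ± 0.500% in caput (n = 19). Cauda, liver and heart did not differ beyond their spread. Libraries overlapped between sperm (2.79 to 6.22%) and testis (1.60 to 4.44%). In caput the share ran from 0.493 to 2.45%, below every sperm library. Summed over libraries the liver share was 4.10%; control replicate 4, with 6.06%, held 33809 of the summed arginine reads. Summed over control-diet libraries of the run, the share was 5.1% in liver, 4.024% in testis, 3.776% in sperm, 3.279% in heart and 2.867% in cauda. By these summed shares sperm did not rank first. They weight libraries by depth and hold 1 diet, whereas the means above weight libraries equally over all diets, so the 2 rankings differ in measure. In control liver, replicate 4 gave 33809 of 50293 arginine reads, and the other control livers had 3.72 to 3.93%. The median library had 3.23% inside the run and 1.604% outside it, where all caput libraries lie. These shares were not tested.

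Diet groups of a tissue stood apart in heart and liver. In heart the arginine share of cytosolic tRNA reads was 0.971 ± 0.210% on the low-protein diet (n = 5), 1.97 ± 0.532% on high-fat (n = 4), 2.99 ± 0.826% on high-fat-control (n = 5) and 3.29 ± 0.295% on control (n = 5). The 5 low-protein hearts had 0.773, 0.803, 1.17, 0.889 and 1.22%, against 3.38, 3.51, 2.81, 3.52 and 3.24% in the 5 control hearts, with no overlap. A share weights each tRNA by its reads. By the median fold change of single tRNAs, given below, the members fell less in low-protein heart than other cytosolic tRNAs. In liver the arginine share was 1.59 ± 0.0976% on low-protein (n = 5), 2.18 ± 0.649% on high-fat (n = 4), 1.80 ± 0.0526% on high-fat-control (n = 4) and 4.38 ± 1.13% on control (n = 4). Low-protein livers lay between 1.47 and 1.72% and control livers between 3.72 and 6.06%. Both low-protein groups lie outside the numbered run and both control groups in it. Where both diet groups lie in the run, low-protein and control shares overlapped in testis (3.07 to 4.27% and 2.86 to 4.44%), cauda (1.18 to 2.16% and 1.77 to 3.21%) and sperm (3.23 to 6.22% and 2.79 to 5.46%).

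**Figure D2:**
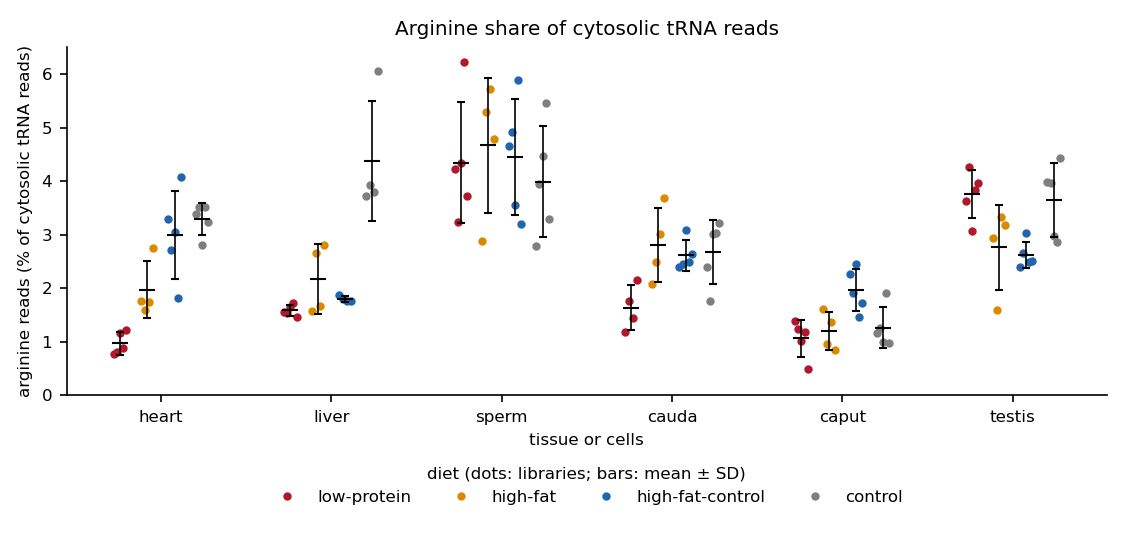
The vertical axis is the percent of cytosolic tRNA reads that are arginine tRNA reads, each dot is 1 library, and the black bars give mean ± SD per diet within a tissue. Low-protein heart (0.971%) lies below control heart (3.29%), low-protein liver (1.59%) below control liver (4.38%), and sperm averages 4.35%.

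The mix of anticodons differed between tissues. TCT, the reader of AGA, held 74.9 ± 12.9% of arginine reads in heart, 63.5 ± 16.3% in liver, 19 ± 7.43% in sperm, 44.2 ± 7.56% in cauda, 72.9 ± 6.97% in caput and 44.2 ± 6.79% in testis (SD, n = 17 to 19). CCT, the reader of AGG, held 21.1 ± 8.41%, 29.2 ± 10.9%, 69.1 ± 8.37%, 39.2 ± 5.74%, 24 ± 7.39% and 35.4 ± 5.60% in the same tissues and order. CCG, the reader of CGG, held 3.19 ± 3.83% in heart, 4.06 ± 4.62% in liver, 8.53 ± 3.85% in sperm, 13.9 ± 4.48% in cauda, 2.09 ± 1.40% in caput and 18.3 ± 3.34% in testis. The highest TCT share among sperm libraries was 38.5% and the lowest among heart libraries 51.1%, so the groups did not overlap. ACG averaged 0.518 to 2.65% and TCG 0.131 to 1.13% over the 6 tissues. These means pool diets, and most heart and liver libraries and all caput libraries lie outside the numbered run. Summed over control-diet libraries of the run, TCT held 55.59% in heart, 55.85% in liver, 49.72% in testis, 38.59% in cauda and 25.96% in sperm. In the heart and liver groups outside the run it held 67.29 to 82.82%.

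**Figure D3:**
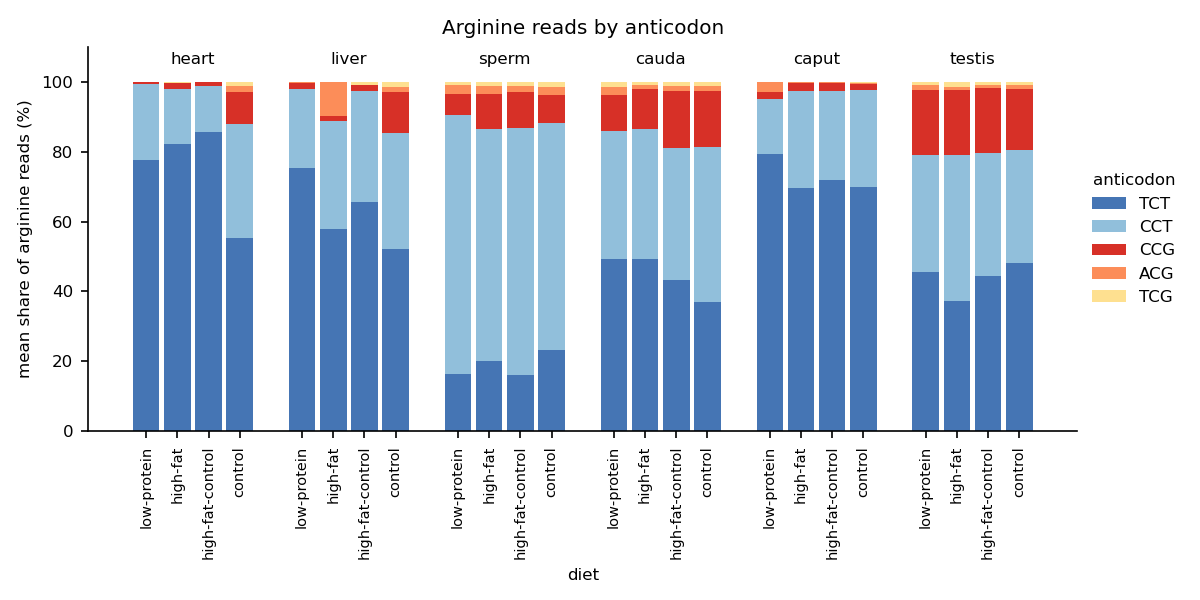
Stacked bars give the mean share of arginine reads (percent) held by each anticodon in each tissue and diet. CCT is the largest band in sperm (69.1% over all diets) and TCT in heart, liver and caput; the ACG band of high-fat liver rests on replicate 3, which had 3 arginine reads.

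Each anticodon was tested against the whole of its amino acid with edgeR's quasi-likelihood differential-usage test (diffSpliceDGE, Benjamini-Hochberg adjusted), which compares tRNAs of the same library with each other. This test was added after the shares had been seen. The values are log2 differences between an anticodon and all arginine tRNAs together. In sperm against the mean of the other 5 tissues, CCT was higher by 1.32 (adjusted p = 3.38e-14), ACG by 1.63 (3.46e-10) and CCG by 0.57 (0.0086), and TCT was lower by 1.60 (log2 difference −1.60, 3.51e-13). Of the 33 anticodons tested over all amino acids, 60.6% were called in sperm. In testis CCG was higher by 2.02 (2.58e-30; 45.5% of anticodons called), and no other arginine anticodon was called. Summed by group, CCG held 15.5 to 18.44% of arginine reads in testis, 8.679 to 19.8% in cauda and 0.4571 to 3.045% in the groups outside the run. In heart TCT was higher by 0.75 (1.06e-04), with ACG at −1.34, CCG at −1.73 and CCT at −0.86, all called lower (12.1% called). In caput TCT was higher by 0.66 (9.28e-04), with ACG at −1.54, CCG at −1.69 and CCT at −0.50, also called lower (39.4% called), of which CCT was lost with total counts in place of TMM factors (−0.55, 0.0584). In cauda ACG was higher by 1.13 and CCG by 1.45 (33.3% called). In liver no arginine anticodon was called and neither was any other (0% of 33), with 3 of 4 arginine anticodons at an unadjusted p under 0.05. DESeq2 has no such test and was not run here. Heart, liver and caput libraries outside the run enter all these comparisons, and in them tissue and numbering cannot be told apart. Summed over control-diet libraries of the run, CCT held 32.34% of arginine reads in heart, 30.94% in liver and 32.45% in testis. CCG held 9.298%, 10.0% and 15.5% there, and ACG 1.701%, 1.525% and 1.387%.

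Mature sperm were set against testis, where they form, and against cauda, where they are stored; all 3 lie in the numbered run. Against testis, CCT was higher within arginine by 1.02 (log2, adjusted p = 3.19e-05) and ACG by 0.94 (0.00342), while CCG was lower (log2 difference −1.20, 4.2e-06) and TCT lower (−1.22, 1.81e-06), where 63.6% of anticodons were called. Against cauda, CCT was higher by 0.84 (0.00148), and CCG (−0.73, 0.00901) and TCT (−1.19, 8.96e-06) were lower, with 39.4% called; CCG was lost with total counts (−0.69, 0.0532). In control-diet libraries of the numbered run alone the shift against testis remained for CCT (1.01, 0.023), TCT (−1.03, 0.023) and CCG (−1.18, 0.0138), but not for ACG (0.81, 0.124). Against cauda, in the same libraries, CCT had 0.57 (0.304) and TCT −0.65 (0.23), neither past the threshold, and CCG −1.09 (0.0459). With 1 diet these tests had 5 libraries per tissue.

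The share of the CGN readers, ACG, CCG and TCG together, divided along the run of library numbers, which was drawn after the values were known. Summed by group, they held 8.97 to 22.4% of arginine reads in all 14 groups inside the run and 0.527 to 3.29% in all 10 groups outside it. By library the share ran from 3.84 to 29.1% in the 65 libraries inside. Outside it ran from 0 to 7.58% in the 43 libraries with at least 5000 reads. Among the 3 shallower libraries, high-fat liver replicate 3 reached 33.3% on 1 of 3 reads (interval 6.15 to 79.2%) and low-protein caput replicate 3 14.3% on 1 of 7 (interval 2.57 to 51.3%). The 5 low-protein livers had 0.962 to 3.30%, against 17, 12.8, 16.3 and 12.5% in the 4 control livers. The 5 low-protein hearts had 0 to 1.37%, against 10.3, 10.3, 14.4, 12.0 and 13.5% in the 5 control hearts. Over all diets the share averaged 11.9 ± 3.88% in sperm (n = 19) and 16.6 ± 4.37% in cauda (n = 18), against 3.15 ± 3.03% in caput (n = 19). Cauda against caput gave the largest arginine shifts of any tissue pair tested, with CCG higher by 2.62 (log2, adjusted p = 2.02e-18) and ACG by 2.23 (5.01e-07) against 51.5% of anticodons called, and there tissue and numbering cannot be told apart.

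Among isodecoders, TCT-5 varied most between tissues. Of TCT reads, TCT-5 held 11.4 ± 3.63% in heart (SD, n = 19, 7.95 to 20.0%) and 9.98 ± 2.35% in testis (n = 19, 6.25 to 12.9%). It held 0.568 ± 0.626% in cauda (n = 18, 0 to 2.39%), 1.40 ± 1.97% in caput (n = 19, 0 to 7.32%) and 1.5 ± 2.51% in sperm (n = 19, 0 to 8.33%). Liver lay between, at 4.49 ± 5.87% (n = 17, 0 to 18.0%). Heart libraries lay above every cauda and caput library, and heart and testis overlapped. In sperm 10 of 19 libraries had no TCT-5 read; the median sperm library had 36 TCT reads, and the summed sperm share was 1.07%.

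TCT-5 also differed from its anticodon by test. Against TCT as a whole, TCT-5 was higher in heart than in the mean of the other 5 tissues by 2.28 (log2, edgeR diffSpliceDGE, adjusted p = 1.77e-28; 28.3% of 53 isodecoders called) and in testis by 2.32 (7.16e-27; 30.2% called). It was lower in cauda (log2 difference −2.51, 3.03e-13; 9.43% called), in caput (−1.55, 3.4e-05; 22.6% called) and in sperm (−1.64, 0.00148; 13.2% called), though the sperm call was lost without title replicate 4 of every group (−1.31, 0.0508). Sperm against testis gave −3.30 (7.61e-13; 30.2% called), and −3.43 in control-diet libraries of the numbered run. Heart against liver gave 0.99 (0.00581; 7.55% called), or 1.24 with total counts, and was lost without replicate 3 (0.83, 0.0801). In control-diet libraries alone, both in the run, heart against liver gave 3.37 (2.36e-11). There the 5 hearts had 8.58, 7.95, 8.17, 10.2 and 9.44% TCT-5 and the 4 livers 0.765, 1.02, 0.660 and 0.905%.

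Liver TCT-5 varied widely within diets. The 5 low-protein livers had 0, 2.65, 1.24, 10.7 and 14% TCT-5 among TCT reads and the 4 high-fat livers 18.0, 13.4, 0 and 0%. High-fat-control livers had 1.75, 1.61, 7.69 and 2.04%, and control livers 0.660 to 1.02%. The 4 libraries above 10% rested on 120 to 216 TCT-5 reads each, and the lowest of their intervals began at 9.39%. In low-protein replicate 1, 0 of 78 TCT reads allowed up to 4.69%, whereas in high-fat replicate 4, 0 of 21 allowed up to 15.5%. They were also the 4 deepest livers outside the control diet, with 273581 to 487627 reads. Their mitochondrial tRNA-Arg level was 19360 to 26050 RPM. Control replicate 4 had 20800 RPM and 0.905% TCT-5, and the levels of the other livers are not given here. Whether depth or any admixed tissue bears on this spread was not tested. Low-protein against control gave a shift of TCT-5 within TCT of 3.13 (log2, adjusted p = 1.40e-04; 15.6% of 32 isodecoders called). For TCT-5 in all liver against the other 5 tissues the shift was 1.10 (1.20e-04; 9.43% called), or 0.86 with total counts (0.0196), but its log2 fold change over all features, 2.03 with all diets, was 0.03 with the high-fat-control and control diets alone.

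**Figure D4:**
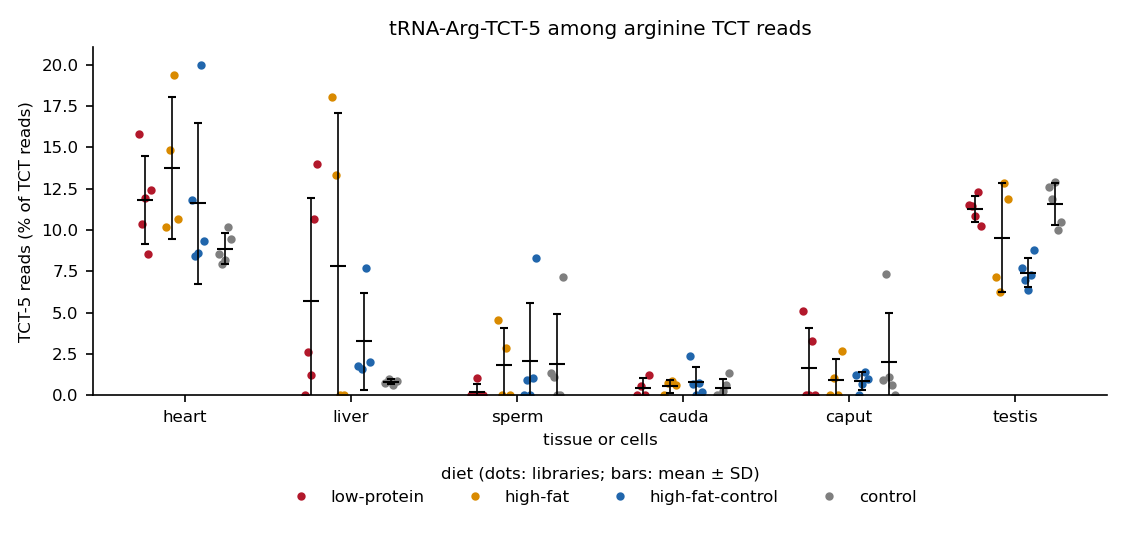
The vertical axis is the percent of TCT reads that are tRNA-Arg-TCT-5, each dot is 1 library, and the black bars give mean ± SD per diet within a tissue. Heart (11.4%) and testis (9.98%) stand above cauda (0.568%), caput (1.40%) and sperm (1.5%), and low-protein and high-fat livers spread from 0 to 18.0%.

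The other isodecoders kept closer to their anticodon. TCT-1 was the most abundant TCT isodecoder on average in every tissue, with 53.6 to 70.7% of TCT reads, followed by TCT-3 with 20.9 to 36.1%. TCT-3 was higher within TCT in caput (log2 0.67, adjusted p = 0.00203), where it held 36.1 ± 10.7% of TCT reads (SD, n = 19). TCT-2 held 6.16 to 13.4%. Within CCT, CCT-4 held 76.2 to 84.9%, CCT-1 7.78 to 13.4% and CCT-2 5.78 to 11.1%. CCT-2 was higher within CCT in testis (0.63, 0.0108), and the call of CCT-2 in heart (−0.57, 0.0434) was lost without any 1 of the 5 title replicates (adjusted p 0.0556 to 0.166). CCT-2 in sperm against testis (−0.74, 0.0228) was lost without replicate 3, 4 or 5. In liver CCT-2 fell within CCT on the low-protein diet (log2 −2.27, 3.03e-04) and on high-fat-control (−3.59, 0.00111; 6.25% of 32 called) against the same control libraries; the second value rests on 2 CCT-2 reads and was −10.24 without high-fat-control replicate 1. Heart against liver gave −0.998 for CCT-2 (0.00929), lost without replicate 1 or 3, and −2.38 in control-diet libraries of the run. CCG-3 held 95.5 to 98.9% of CCG reads on average. ACG-1 held 49.5 to 65.2% of ACG reads and ACG-3 29.8 to 46.4%, in libraries with few ACG reads.

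Levels over all features were tested with edgeR's quasi-likelihood F test, and a member was called at an adjusted p under 0.05 with a log2 fold change of 1 or more in either direction. ACG-3 was too low to be tested between tissues, which left 9 members. In heart against the mean of the other 5, TCT-1 (log2 2.15 ± 0.24 SE), TCT-2 (2.23 ± 0.25), TCT-3 (2.0 ± 0.24), TCT-5 (4.46 ± 0.28) and CCT-1 (1.02 ± 0.24) were called higher, 5 of 9 against 39.1% of all features (18.4% higher). Scaling decided most of this. The median of all features moved by −1.54 with median-of-ratios factors and by −2.29 with total counts, under which TCT-1 had −0.29 and CCT-4 −1.73, and TCT-5 was the 1 member still called higher (3.13 and 2.22). In sperm the 4 TCT isodecoders were lower, with TCT-1 at −2.14 ± 0.32, TCT-2 at −2.39 ± 0.37, TCT-3 at −2.36 ± 0.33 and TCT-5 at −4.01 ± 0.53 (65% of features called, 34.7% higher and 30.3% lower), and kept that sign under each scaling. In testis CCG-3 (1.53 ± 0.29) and TCT-5 (1.92 ± 0.32) were higher (58.8% called, 37.4% higher). In liver TCT-2 (1.30 ± 0.29) and TCT-5 (2.03 ± 0.34) were higher (36.7% called, 19% higher). In caput ACG-1, CCG-3, CCT-1, CCT-2 and TCT-5 were lower, by −2.29 ± 0.60 to −1.44 ± 0.38 (47.3% called, 32.7% lower). In cauda CCG-3 was higher (1.10 ± 0.30) and TCT-5 lower (−2.92 ± 0.45; 46.3% called, 24.5% higher and 21.8% lower).

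Sperm against testis had 5 of 9 members lower (75.9% of features called, 29.9% higher and 45.9% lower). TCT-5 stood at 16.2 ± 22.8 RPM in sperm and 770 ± 581 RPM in testis (SD, n = 19 each), a log2 fold change of −4.94 ± 0.58 (SE, adjusted p = 1.06e-13). CCG-3 stood at 541 ± 277 RPM in sperm and 2670 ± 1336 RPM in testis (−1.56 ± 0.41, 3.42e-04). TCT-1, TCT-2 and TCT-3 had −1.28 ± 0.36, −1.95 ± 0.42 and −1.38 ± 0.36. CCT-4 stood at 4784 ± 3858 RPM in sperm and 4027 ± 2100 RPM in testis, with 0.89 ± 0.31 (0.00646), under the fold limit. Sperm against cauda had TCT-1 (−1.60 ± 0.37), TCT-2 (−1.22 ± 0.43), TCT-3 (−1.40 ± 0.37) and CCG-3 (−1.20 ± 0.41) lower (44.6% called, 22.1% lower), and none called in control-diet libraries of the run. With median-of-ratios factors the direction of the calls turned, CCT-1 (1.58), CCT-2 (1.22) and CCT-4 (1.36) being called higher and no member lower. Cauda against caput had ACG-1 (2.46 ± 0.66), CCG-3 (2.63 ± 0.45), CCT-1 (1.05 ± 0.37) and CCT-2 (1.12 ± 0.43) higher, and TCT-3 (−1.22 ± 0.36) and TCT-5 (−1.21 ± 0.55) lower (63.3% called, 36.1% higher and 27.2% lower). Heart against liver had TCT-1 (1.05 ± 0.37) and TCT-5 (2.02 ± 0.44) higher (33% called, 16% higher); with total counts TCT-1 had −0.54, and in the run's control libraries −0.35.

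Reads summed by anticodon, which keeps reads shared by copies of 1 anticodon in 1 row, were tested in the same way. In heart TCT was the 1 arginine anticodon of 5 called (log2 2.37 ± 0.27 SE; 35.9% of features called), at 3859 ± 1629 RPM in heart and 5038 ± 4253 RPM in the other tissues (SD, n = 19 and 92). The RPM and the fold change thus differ in direction, and with total counts TCT had −0.22 and the other 4 anticodons were called lower. In testis CCG was higher (1.40 ± 0.34; 62.6% called), at 2706 ± 1369 RPM in testis and 624 ± 860 RPM elsewhere. In sperm ACG was higher (1.02 ± 0.41) and TCT lower (−2.12 ± 0.36; 64.5% called), and TCT stood at 1802 ± 1841 RPM in sperm and 5463 ± 3983 RPM elsewhere. In caput ACG, CCG, CCT and TCG were lower, by −3.19 ± 0.68 for TCG to −1.19 ± 0.32 for CCT (47.7% called). In cauda CCG (1.09 ± 0.34) and TCG (1.04 ± 0.41) were higher (48.1% called). In liver none was called (34.4% called), TCT having 0.90 ± 0.31 (adjusted p = 0.00993) under the fold limit. On the low-protein diet 5 of 5 anticodons were lower in liver (29.4% called) and in heart (70.2% called), and CCT stood at 673 ± 574 RPM in low-protein hearts and 2410 ± 337 RPM in control hearts (−2.51 ± 0.55, adjusted p = 2e-05). The liver call of TCT (−2.97 ± 0.90) was lost without low-protein replicate 5 (−2.38, adjusted p = 0.0558).

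The low-protein diet was set against its control in each tissue, with a call at an adjusted p under 0.05. In liver 9 of 10 members were lower, where 35.6% of features were called, 9.76% higher and 25.9% lower. ACG-1 had 0, 10.2, 0, 0 and 0 RPM in the 5 low-protein livers, against 169, 245, 90.3 and 302 RPM in the 4 control livers. Those levels rest on 1 read against 355, a ratio of 267 in rates with a counting interval of 47.6 to 10600. CCG-3 had 39.96, 71.2, 44.5, 98.4 and 44.1 RPM in low-protein livers, against 2557, 2433, 3200 and 3604 RPM in control livers, a log2 fold change of −5.14 ± 0.73 (SE, adjusted p = 1.28e-05). CCT-2 had −5.50 ± 0.77 and CCT-4 −2.87 ± 0.58. Among TCT isodecoders TCT-1 had −2.45 ± 0.79, TCT-2 −2.81 ± 0.75 and TCT-3 −1.81 ± 0.69. TCT-5 had 0, 50.9, 19.1, 443 and 353 RPM in low-protein livers, against 64.9, 159, 76.9 and 218 RPM in control livers, and the groups overlapped (0.97 ± 0.97, 0.494). The members' median was −3.29, beside −2.35 over the 60 other cytosolic tRNAs tested (43 lower, 0 higher) and 0.13 over all features.

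In heart 8 of 10 members were lower on the low-protein diet, where 75.2% of features were called, 33.5% higher and 41.7% lower. The count was 4 without control replicate 1, ran up to 10 when another library was left out, and was 5 with the 2 groups fitted alone. CCG-3 had 5.66, 0, 34.2, 9.29 and 21.3 RPM in low-protein hearts, against 633, 594, 635, 673 and 741 RPM in control hearts (log2 −5.87 ± 0.64, adjusted p = 1.84e-18). ACG-1 rested on 1 read against 330 (ratio 60.2, counting interval 10.7 to 2390), and ACG-3 on 0 against 213 (at least 13-fold lower, with the limit of 3 reads taken over the group). CCT-4 had 56.6, 101, 1027, 576 and 679 RPM in low-protein hearts, against 2373, 2162, 1698, 2163 and 1685 RPM in control hearts (−2.53 ± 0.52, 2.95e-06). TCT-1 had 204, 261, 3047, 1858 and 1944 RPM in low-protein hearts, against 2227, 2360, 1795, 2341 and 2172 RPM in control hearts; replicate 3 alone exceeded all controls (−1.06 ± 0.51, 0.0501). TCT-5 had −0.90 ± 0.48 (0.0783). The 79 other cytosolic tRNAs tested had a median of −3.19 (65 lower, 4 higher), below the members' −1.73. The arginine share of cytosolic tRNA reads, which weights each tRNA by its reads, was nonetheless lower in low-protein than in control hearts. Scaled to cytosolic tRNAs alone, TCT-1 had 1.11 and TCT-5 1.33, so their direction turned, whereas ACG-1 (−3.80) and CCG-3 (−3.61) did not. Low-protein hearts had 29211 to 470061 reads and control hearts 735211 to 1467880. Whether depth bears on this result was not tested.

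Within arginine, ACG and CCG fell on the low-protein diet in liver and heart, and TCG in heart. In liver CCG had a log2 difference of −2.62 from all arginine tRNAs (adjusted p = 1.41e-05; 9.38% of 32 anticodons called), and ACG, with 2 reads in low-protein livers against 767 in control livers, had −4.65 (1.04e-05). In heart CCG had −4.09 (3.34e-16; 35.3% of 34 called). Heart ACG (−5.29, 2.04e-09) and TCG (−4.53, 2.35e-06) rested on 1 read each in low-protein hearts, against 659 and 415 in control hearts. CCT and TCT were not called in either tissue. Inside the numbered run, low-protein against control changed no arginine anticodon within its amino acid in testis, cauda or sperm (edgeR, 0 at an unadjusted p under 0.05).

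**Figure D5:**
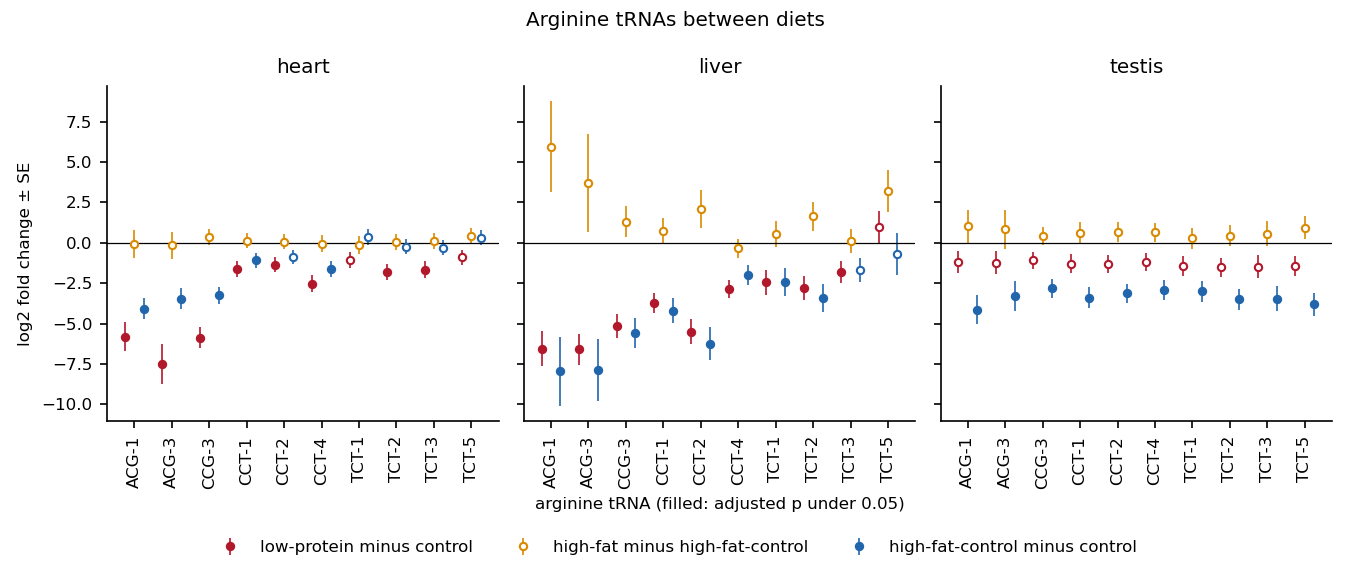
The vertical axis is the log2 fold change ± SE of each arginine tRNA over all features in heart, liver and testis for the 3 diet comparisons; filled points passed an adjusted p of 0.05. For low-protein and high-fat-control minus control, the ACG and CCG isodecoders have the lowest values in heart and the ACG isodecoders in liver, and in testis all 10 members lie between −4.14 and −2.82 for high-fat-control minus control.

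The high-fat diet against its own control called no member in any tissue (edgeR), and DESeq2 called none either. Features called were 2.93% in liver (2.44% higher), 1.24% in heart, 0.690% in caput and 0% in testis, cauda and sperm. At an unadjusted p under 0.05 there were 2 of 10 members in liver, and 0 of those tested in each other tissue. In heart the 10 fold changes ran from −0.17 ± 0.85 for ACG-3 to 0.39 ± 0.49 for TCT-5. CCG-3 had 117, 76.3, 60.9 and 126 RPM in high-fat hearts, against 93.7, 47, 103, 0 and 51.2 RPM in high-fat-control hearts, and the groups overlapped. TCT-5 had 566, 604, 709 and 633 RPM in high-fat hearts, against 615, 326, 537, 353 and 460 RPM in high-fat-control hearts, also with overlap. In liver the standard errors ran up to 3.06, for ACG-3. TCT-5 had 3.19 ± 1.30 (0.139), on 364 reads in high-fat livers and 6 in high-fat-control livers. The high-fat and high-fat-control groups of heart and of liver all lie outside the numbered run.

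The 2 control diets also differed from each other, and this comparison uses the same control libraries as the low-protein one. In liver 8 of 10 members were lower on high-fat-control than on control (25.9% of features called, 5.85% higher and 20% lower), with CCG-3 at −5.57 ± 0.92, CCT-2 at −6.24 ± 1.04 and CCT-4 at −1.97 ± 0.62. CCT-2 rested on 2 reads against 3108, a ratio of 55.2 (counting interval 15.3 to 456). ACG-1 and ACG-3 had no read in high-fat-control livers, at least 4.21-fold and 4.08-fold lower. In heart 5 of 10 were lower (57% called, 29.3% higher and 27.7% lower), namely ACG-1 (−4.08 ± 0.64), ACG-3 (−3.46 ± 0.65), CCG-3 (−3.26 ± 0.52), CCT-1 (−1.08 ± 0.45) and CCT-4 (−1.65 ± 0.50). TCT-1 had 2968, 2575, 3822, 883 and 3232 RPM in high-fat-control hearts, against 1795 to 2360 RPM in control hearts (0.34 ± 0.50, adjusted p = 0.573). Within arginine, heart ACG (−3.43, 3.86e-15), CCG (−2.85, 1.62e-16), TCG (−4.31, 3.61e-15) and CCT (−1.16, 5.65e-05) fell (29.4% called), as did liver CCG (−3.31, 6.23e-04; 9.38% called). Liver CCG rested on 4 reads in high-fat-control livers and was lost without high-fat-control replicate 1 (−2.49, 0.118). Liver ACG, with 0 reads in high-fat-control livers against 767 in control livers, was called (0.0365), and that call was lost without any 1 of the 4 high-fat-control libraries (adjusted p 0.067 to 0.23). These groups also differ in numbering. High-fat-control livers had 6279 to 22145 reads and control livers 77047 to 809087. High-fat-control hearts had 11320 to 661619 reads and control hearts 735211 to 1467880. Whether depth bears on these results was not tested.

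Testis was the tissue inside the numbered run with diet calls. All 10 members were lower on high-fat-control than on control, where 46.8% of features were called (29.8% lower), between −4.14 ± 0.89 for ACG-1 and −2.82 ± 0.57 for CCG-3. CCG-3 had 1339, 1568, 1480, 1843 and 1749 RPM in high-fat-control testes, against 3643, 4043, 2248, 3313 and 5658 RPM in control testes, without overlap. TCT-5 had 370, 214, 296, 205 and 360 RPM in high-fat-control testes, against 1826, 1702, 585, 728 and 1833 RPM in control testes, also without overlap (−3.81 ± 0.72, adjusted p = 8.74e-04). The members' median of −3.34 was next to −3.32 over the 93 other cytosolic tRNAs tested (84 lower, 0 higher), and −2.24 over mitochondrial tRNAs. Relative to cytosolic tRNAs alone, TCT-5 was the 1 member still lower (−0.86), CCG-3 having −0.12 and CCT-4 0.00. With total counts, CCG-3 had −1.25 and TCT-5 −2.19. High-fat-control testes had 19530 to 43306 reads and control testes 117899 to 671134; whether depth bears on this result was not tested. No arginine anticodon or isodecoder changed within its amino acid or anticodon (edgeR, 0 of 5 and 0 of 8 also at an unadjusted p under 0.05). Low-protein against control in testis called no member (edgeR, 0% of 447 features called; 7 of 10 at an unadjusted p under 0.05; 0 by DESeq2), with fold changes of −1.53 ± 0.59 to −1.09 ± 0.53.

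In caput 4 members could be tested (CCT-4, TCT-1, TCT-2 and TCT-3), and all 4 were higher on high-fat-control than on control, by 1.24 ± 0.42 to 1.49 ± 0.45 (adjusted p 0.0199 to 0.0308; 23.4% of features called, 17.9% higher). The 38 other cytosolic tRNAs tested had a median of 1.25 (21 higher, 0 lower), beside 1.32 for the members and 0.02 for all features. None was called relative to cytosolic tRNAs alone, where CCT-4 had −0.01. None was called without control replicate 2, and 1 without control replicate 3. Low-protein against control in caput called none (0 at an unadjusted p under 0.05, 1 by DESeq2; 41.4% of features called). In cauda 7 members and in sperm 6 could be tested, and none was called in any diet comparison by DESeq2 or by edgeR fitted over the 4 diets, where 0% of features were called. With the 2 groups fitted alone, edgeR called 4 members lower on the low-protein diet in cauda. The share of all features called in that fit was not recorded, so this count has no background beside it. At an unadjusted p under 0.05 there were 4 of 7 in cauda on the low-protein diet and 0 in the other cauda comparisons and all 3 sperm comparisons.

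Diet effects on the members differed between tissues. In a fit over all 6 tissues with tissue by diet terms (edgeR quasi-likelihood F test), the low-protein effect differed for 7 of 10 members, beside 35.9% of 410 features, from adjusted p = 1.49e-07 for CCG-3 to 0.0354 for TCT-2. It was not called for TCT-1 (0.13), TCT-3 (0.328) and TCT-5 (0.434). The difference between the 2 control diets varied among tissues for all 10 members (44.8% of 406 features), and the high-fat effect for 0 of 8 (3.17% of 379; 1 of 8, TCT-5, at an unadjusted p under 0.05, 0.0172, and adjusted p = 0.211; this fit was not run with DESeq2). Tissue and numbering overlap in the first 2 of these tests, as in the comparisons they join.

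Across the 24 group means of log2(RPM + 1), which share library scaling, the members fell into a set of CGN and CCT readers and a set of TCT readers. Of these groups 14 lie inside the numbered run and 10 outside, and the CGN share divides along it. The correlations were not computed within either part. Pearson's r between ACG, CCG and CCT isodecoders ran from 0.66 (ACG-1 with CCT-1) to 0.91 (ACG-3 with CCG-3), and between TCT isodecoders from 0.37 (TCT-3 with TCT-5) to 0.85 (TCT-1 with TCT-3). Between the sets it ran from −0.12 (CCT-4 with TCT-5) to 0.43 (CCG-3 with TCT-1). The non-arginine feature most like each member over the same 24 groups was a cytosolic tRNA in each case. It was tRNA-Met-CAT-2 for ACG-1 (r = 0.851) and ACG-3 (0.925), tRNA-Thr-CGT-1 for CCG-3 (0.936) and CCT-1 (0.878), tRNA-Pro-AGG-1 for CCT-2 (0.911) and tRNA-His-GTG-2 for CCT-4 (0.879). For TCT-1 it was tRNA-Thr-TGT-3 (0.841), for TCT-2 tRNA-Glu-CTC-1 (0.726), for TCT-3 tRNA-Gln-TTG-3 (0.756) and for TCT-5 tRNA-Gly-GCC-1 (0.855). For the summed arginine rows the 3 most alike were tRNA-Lys-CTT-2 (0.893), tRNA-Cys-GCA-3 (0.866) and tRNA-Lys-CTT-3 (0.856).

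Lists of related tRNAs give the members' place among cytosolic tRNAs. On the low-protein diet in liver, 12 of 12 tested serine and threonine tRNAs were lower, with a median of −2.91. These tRNAs can carry 3-methylcytosine, as can Arg-CCT and Arg-TCT. There 8 of 9 inosine-read tRNAs were lower with −3.23, and 3 of 4 lysine and histidine tRNAs with −1.78. In heart the medians were −2.89 (14 of 15 lower), −3.82 (17 of 17 lower) and −2.17 (4 of 4 lower). Most of the other cytosolic tRNAs tested were lower in both tissues too, as given above, and whether these lists differ from them was not tested. In sperm against testis the members' median was −1.28 (5 of 9 lower, 0 higher), beside −0.05 over 65 other cytosolic tRNAs (20 lower, 17 higher), −0.68 over 13 serine and threonine tRNAs (5 lower, 5 higher), 1.13 over 11 inosine-read tRNAs (6 higher, 0 lower) and −0.52 over all features. The mitochondrial arginine tRNA, mt-tRNA-Arg-TCG-1, was higher in heart by 4.12 ± 0.27 and lower in sperm by −3.21 ± 0.40 against the other 5 tissues (log2, SE); in heart all 21 mitochondrial tRNAs tested were higher.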

How the data were processed

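OTTR-seq small-RNA libraries of 6 mouse tissues and 4 diets were analysed from 1 table of raw read counts, deposited by the authors with 1 column per library and 1 row per RNA. Per the submitters' processing notes, cutadapt and DESeq2 were used and the build was mm10. Versions and the aligner were not stated there, nor how reads were divided among tRNA copies. Of 1268 entries, 22 second names of mitochondrial tRNAs, 55 further 5S rRNA entries and 149 entries whose counts repeated another's within 5.0% were set aside. The 1042 kept features held 51.1% of all counts. No other per-sample column was left out.

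RPM (reads scaled to 1000000 per library) and shares were computed over these features from the counts. Counts were tested with edgeR 4.0.16 (R 4.3.3, limma 3.58.1; filterByExpr, TMM factors, robust quasi-likelihood F test), with Benjamini-Hochberg adjustment over all features tested within each comparison. SE is the absolute log2 fold change divided by the square root of F. Tissue comparisons were fitted over all 111 libraries and diet comparisons within a tissue. Single isodecoders against their anticodon, and anticodons against their amino acid, were tested with diffSpliceDGE on cytosolic tRNA rows. The scripts were tested on simulated data. No 2 libraries of a group agreed within sampling noise (lowest chi-square per degree of freedom 1.54 over 204 pairs). The fits have no replicate block.

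Alternatives were other scalings (median-of-ratios, total counts, cytosolic tRNAs only), DESeq2 1.42.0, no filter, all entries as listed, the 2 groups alone, control diets only, a replicate block, and leaving out shallow libraries or each replicate. All 10 members are named; the likeness rule took, per member, the non-arginine feature with the highest Pearson r over 24 group means. The members and the lists of other tRNAs were chosen with earlier results of these data known, and the anticodon test and the division by column number after seeing the data. Cell composition was not analysed.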

Additional observations from a re-analysis of the deposited data

Results flagged for a closer look

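In 13 of 120 combinations of a group and a share measure, 1 library stood apart from the others by Dixon's test. Its nominal rate of about 1 in 20 holds for independent, normal values and is no measure for this count. Some shares rest on few reads, and low-protein sperm replicate 3 was flagged on 1 TCT-5 read because the others had 0. The CCT and TCT shares of a library also depend on each other. High-fat sperm replicate 2 and control caput replicate 2 stood apart in more than 1 measure. Arginine tRNAs made up 6.06% of cytosolic tRNA reads in control liver replicate 4 (33809 of 558044 reads, 95% interval 6.00 to 6.12%), above 3.72 to 3.93% in the other 3. They made up 2.76% in high-fat heart replicate 4 (interval 2.68 to 2.84%), above 1.60 to 1.77% in the other 3.

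CCT held 36.4% of arginine reads in control caput replicate 2 (24 of 66 reads), above 24.2 to 27.5% in the others. It held 48.1% in high-fat-control cauda replicate 3 (62 of 129), above 34.2 to 35.9%. In high-fat sperm replicate 2 CCT held 48.1% (50 of 104), below 70.5 to 75.1%, and TCT held 38.5% (40 of 104), above 13.5 to 15.2%. TCT held 75.3% in low-protein heart replicate 3 (134 of 178), below 78.1 to 79.1%, and 24.1% in control cauda replicate 5 (75 of 311), below 39 to 41.4%.

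TCT-5 among TCT reads stood out in 5 groups on 1 to 3 reads each. It was 7.69% in high-fat-control liver replicate 3 (2 of 26, interval 2.14 to 24.1%), 7.32% in control caput replicate 2 (3 of 41), 8.33% in high-fat-control sperm replicate 5 (1 of 12), 1.08% in low-protein sperm replicate 3 (1 of 93) and 7.14% in control sperm replicate 5 (1 of 14).

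The low-protein effect differed among tissues by the interaction test (edgeR, adjusted p) for ACG-1 (2.77e-06), ACG-3 (1.27e-05), CCG-3 (1.49e-07), CCT-1 (0.00417), CCT-2 (5.68e-05), CCT-4 (0.0215) and TCT-2 (0.0354). The difference of high-fat-control from control did so for ACG-1 (3.11e-05), ACG-3 (0.00114), CCG-3 (1.58e-09), CCT-1 (4.34e-07), CCT-2 (3.84e-07), CCT-4 (4.55e-05), TCT-1 (3.11e-05), TCT-2 (1.63e-06), TCT-3 (7.8e-05) and TCT-5 (0.000266).

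Rows for single gene copies, outside the 10 members, held 37 reads for ACG-3-1 and 32 reads for CCT-4-1 over all libraries.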

How the results depend on the processing

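Of the summary results under alternatives other than leaving out a replicate, 411 values kept their direction and call, 23 were weaker, 17 stronger, 9 reversed and 1 moved; the cause was not tested unless the setting itself gives it. Values are numbers of arginine members called unless named, with log2 fold changes for members. Shares of all features called were not recorded for these settings. With total counts, heart against the other 5 gave 6 (1 higher, 5 lower), with ACG-1 −2.16, CCT-1 −1.41, CCT-2 −2.27, CCT-4 −1.73, TCT-1 −0.29, TCT-2 −0.20 and TCT-3 −0.43; its anticodons gave 4, all lower, with ACG −2.19, CCG −2.51, CCT −1.75, TCG −2.14 and TCT −0.22. Heart against liver then gave 5, all lower, with ACG-1 −1.65, CCG-3 −1.63, CCT-1 −1.27, CCT-4 −1.06 and TCT-1 −0.54; its anticodons gave 4, with ACG −1.64, CCG −1.63, CCT −1.19 and TCT −0.50, and 0 against their amino acid. Total counts also gave 7 in sperm, 6 in testis (CCT-1 1.13, TCT-2 1.26), 1 in liver, 4 anticodons in sperm and 4 in testis (CCT 1.02), and 1 isodecoder for high-fat liver. With median-of-ratios factors heart gave 4 (1 higher, 3 lower; ACG-1 −1.34, CCT-1 −0.40, CCT-2 −1.30), liver 1, sperm 8, testis 4, sperm against cauda 3 (all higher) and caput high-fat-control 2. Scaled to cytosolic tRNAs, low-protein heart gave 7 (4 higher, 3 lower), with CCT-1 0.64, CCT-2 0.86, TCT-1 1.11, TCT-2 0.44, TCT-3 0.50 and TCT-5 1.33; high-fat-control heart gave 7 (4 higher, 3 lower), with CCT-1 0.05, TCT-2 0.90 and TCT-3 0.95. Low-protein liver then gave 4 (TCT-3 0.81), high-fat-control liver 3 (CCT-4 0.04), caput 0 (CCT-4 −0.01, TCT-2 −0.01), testis high-fat-control 1, sperm 7, liver 1 and heart against liver 1. DESeq2 gave 5 in liver, 1 for heart against liver and 1 for low-protein caput. All entries as listed gave 5 for cauda against caput (2 higher, 3 lower), 1 for heart against liver, 2 for caput high-fat-control and 1 for low-protein caput. Without the filter, caput high-fat-control gave 0 and heart against liver 1. The 2 groups alone gave 4 for low-protein cauda, 5 for low-protein heart and 5 for high-fat-control liver. Without libraries under 5000 reads, liver gave 4, with 2 isodecoders; anticodons gave 0 for heart against liver, 1 for high-fat liver and 2 against their amino acid in testis; cauda against caput gave 1 isodecoder. In control-diet libraries of the run, sperm against cauda gave 0 members and 1 anticodon against its amino acid, heart against liver 0 such anticodons with TCT-1 at −0.35, and sperm against testis 1 isodecoder. The summed liver share was 4.10%. DESeq2 was not run on the anticodon sums.

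Same-numbered libraries did not deviate together, all correlations passing 0.1 in 1 of 36 pairs of diet groups and 0 of 60 pairs of tissue groups (45 of 157 and 48 of 270 same-numbered pairs correlated best with their own number), so the numbers were not taken to pair the samples. A replicate block gave 2 for caput high-fat-control in place of 4, and kept the other counts of members within 1.5 times of theirs.

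Leaving out each replicate in turn, members called ran from 0 to 4 for caput high-fat-control, 3 to 5 for cauda against caput, 1 to 3 for cauda, 1 to 4 for heart against liver, 4 to 10 for low-protein heart and 1 to 3 for liver. Anticodons called ran from 0 to 2 for caput high-fat-control, 0 to 3 for cauda, 0 to 2 for heart against liver, 0 to 1 for liver and for high-fat liver, 1 to 2 for sperm against cauda and 1 to 3 for sperm. Anticodons against their amino acid ran from 0 to 2 for heart against liver and for high-fat-control liver, 0 to 1 for liver and 1 to 2 for testis. Isodecoders ran from 0 to 2 for heart against liver, 1 to 2 for sperm against testis and 0 to 1 for sperm, and stood at 1 for heart in each refit. Depth limits ACG-1, ACG-3 and TCT-5 most, which had no read in 31, 45 and 26 of the 111 libraries.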
